A study of Mus musculus with 5 samples.

Results

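Cytochrome P450 genes outside the Cyp4 family were followed in the liver of mice given streptozotocin and bezafibrate. The members are the genes whose array probe set carries exactly 1 symbol that begins with Cyp and a digit, leaving out symbols that begin with Cyp4, the bile acid enzyme genes Cyp7a1, Cyp7b1, Cyp8b1 and Cyp27a1, and Cyp51 of cholesterol synthesis. This gave 65 genes, each with 1 probe set, of 19938 genes with such a probe set on the array. The pattern that removes Cyp4 also removes Cyp46a1, the cholesterol hydroxylase gene of neurons, which lay between 6.55 (mouse 1) and 6.90 (mouse 2) and is not counted here. Cyp2a4, Cyp2a5, Cyp19a1 and Cyp24a1 had no probe set of their own. Also not used were 5 probe sets with several symbols, at least 1 of them of a P450 gene and none beginning with Cyp4.

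Cytochrome P450 enzymes are heme proteins that insert an oxygen atom into their substrate, mostly in the endoplasmic reticulum, with electrons supplied by P450 reductase. In liver, families 1 to 3 oxidise drugs, pollutants, steroids, bile acids and polyunsaturated fatty acids. Their genes lie in clusters of close copies and are controlled by ligand-sensing receptors, namely AHR for family 1, CAR (Nr1i3) for Cyp2b and several Cyp2c genes, and PXR (Nr1i2) for Cyp3a. Several mouse P450 genes are also expressed at different levels in males and females, under control of the growth hormone pattern.

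All 5 arrays came from 1 group of male wild-type C57BL/6N mice aged 5 to 6 months. Each mouse had been injected with streptozotocin, a toxin of the insulin-producing beta cells, at 65 mg/kg on 5 successive days, when 10 to 16 weeks old. Bezafibrate, a fibrate that activates PPAR receptors, was fed for 8 weeks, from 2 weeks after the injections, at 0.25% or 0.5% of the chow. Which of these amounts a mouse ate is not stated per mouse. No other treatment was analysed here, so the values give levels in doubly treated livers and the differences between mice, and no effect of either compound. The samples are titled biological replicates, and the mouse numbers serve as names.

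Values are log2 signals, where 1 unit corresponds to 2-fold. Genes of smell and pheromone receptors (1210 probe sets), for which no role in liver is known, served to set a brightness floor at their 95th percentile on each array. The floor lay between 5.59 (mouse 1) and 6.07 (mouse 4), and mouse 4 had the highest value of 76.0% of these receptor probe sets. Array medians lay between 6.22 and 6.31, and the brightest value of an array between 14.00 and 14.12. All 5 hepatocyte markers (Alb, Apoa1, Ttr, Serpina1c and Tat) exceeded the floor on every array. No comparison was made between the levels of 2 probe sets, which differ in their probes. Fewer cells of a type and less RNA per cell cannot be told apart in whole liver. Close P450 copies can also share signal on an array, which was not tested.

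Of the 65 genes, 44 exceeded the floor on all 5 arrays, 4 on some of them and 17 on none, against 60% of all 19938 genes above the floor on all arrays. The 48 genes with a mean above 5.77, the floor of the means, were tested. Their median SD over the 5 mice was 0.173, against 0.117 for all 13336 tested genes. The variance of each gene was set against the variance expected at its level by an upper-tail F test on limma's robust variance fit. For 20 of the 48 genes the unadjusted p was under 0.05, which was so for 6.38% of all tested genes. After Benjamini-Hochberg adjustment over all tested probe sets, 2 of the 48 passed at 0.05, Cyp2b13 and Cyp2c55, against 0.285% of all tested genes. A single mouse lay far from the others, by Dixon's ratio of gap to range, in 1 of the 48 genes (Cyp2j6), against 5.65% of all tested genes. In the plot of values by mouse, the points of Cyp2b13, Cyp2c55, Cyp2c37, Cyp2c39 and Cyp39a1 lie widest apart. The 2 calls were not stable: 0 P450 genes passed in limma with the floor at the 99th percentile (19 at an unadjusted p under 0.05), without limma's robust step (16), or without mouse 2 (18), mouse 3 (15) or mouse 4 (19). Without mouse 4, 0 of all 14891 probe sets passed (864 at an unadjusted p under 0.05), so that count of 0 is not particular to P450 genes. In the other settings just named, 18 to 34 probe sets of the whole array passed, against 52 of 14586 in the main setting.

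**Figure D1:**
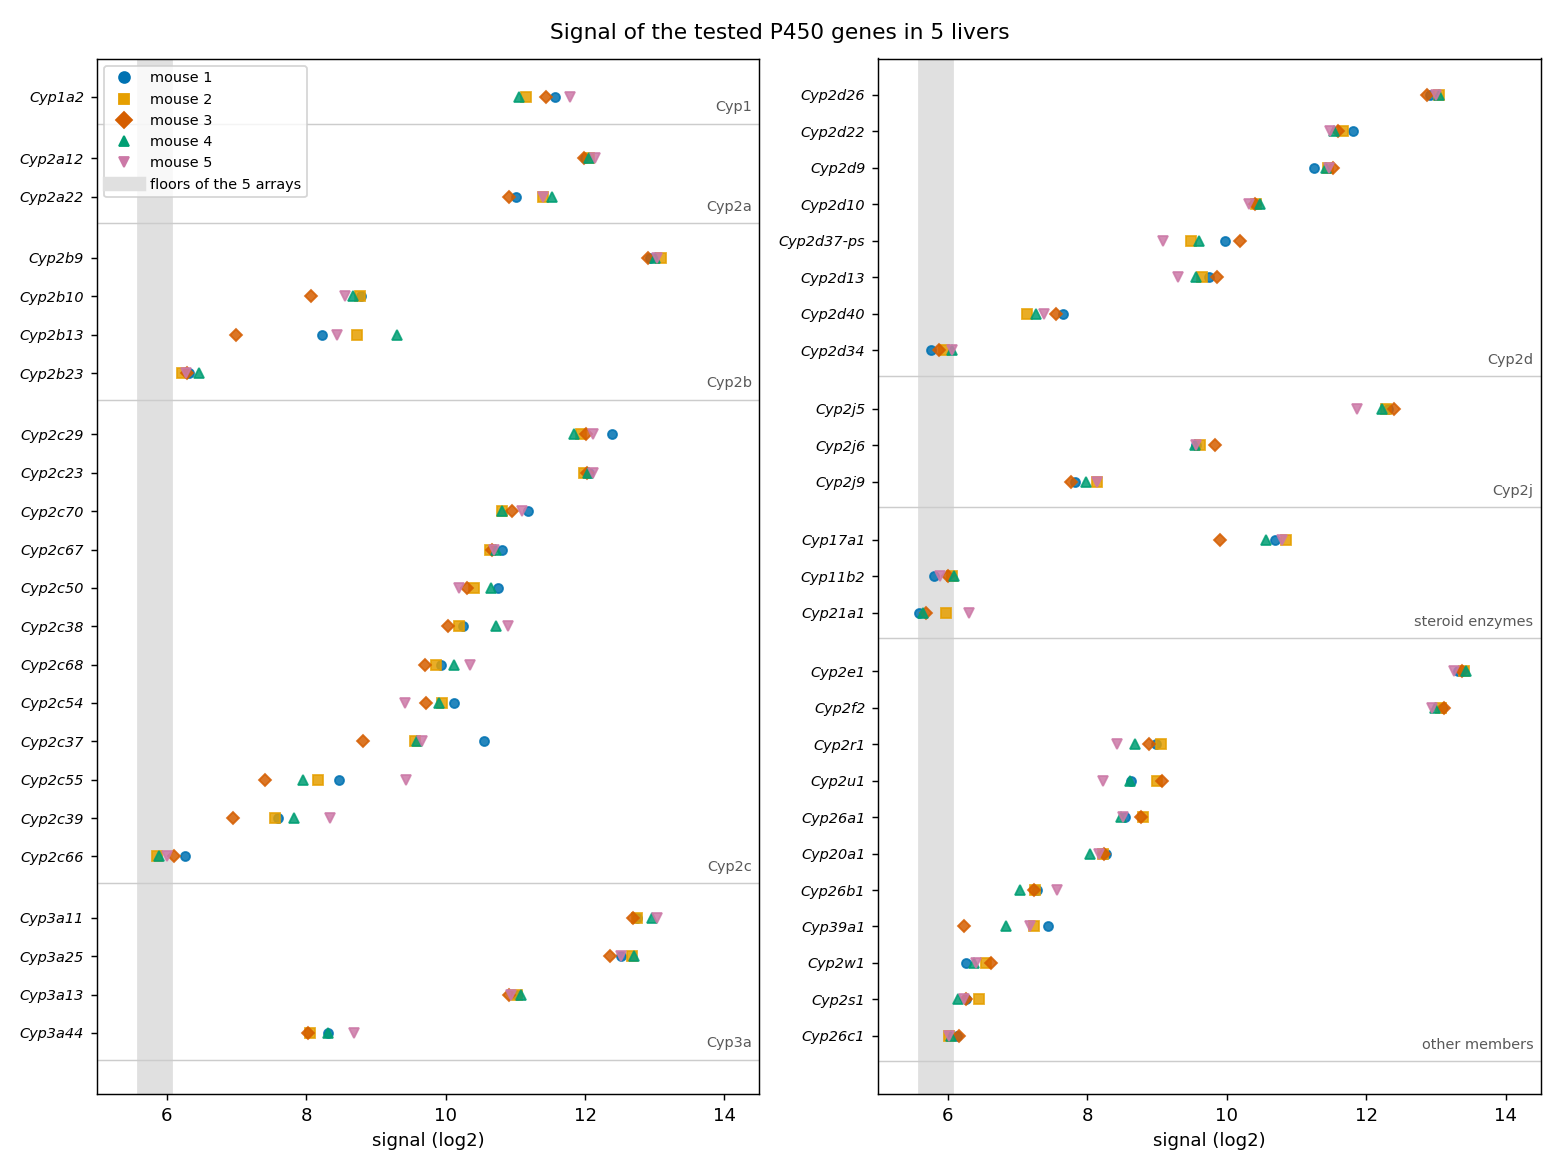
Signal (log2) of the 48 tested P450 genes, 1 point per mouse (colour and shape) and 1 line per gene, grouped by subfamily. The grey band spans the floors of the 5 arrays, 5.59 to 6.07. Cyp2b13 runs from 6.99 in mouse 3 to 9.31 in mouse 4, whereas Cyp2b9 stays between 12.90 and 13.09.

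**Figure D2:**
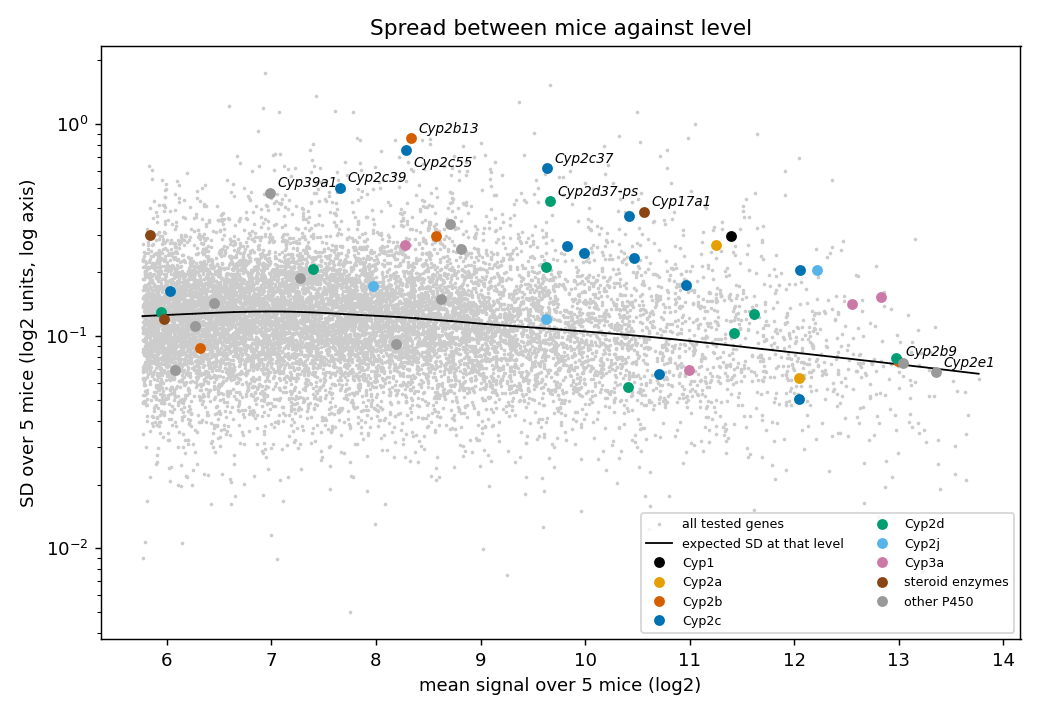
SD over 5 mice (log2 units, log axis) against mean signal (log2) for all 13336 tested genes (small grey points) and the 48 tested P450 genes (large points, coloured by subfamily). The line is the SD expected at that level. Cyp2b13 (SD 0.86), Cyp2c55 (0.75) and Cyp2c37 (0.62) lie above the line, while Cyp2b9 (0.08) and Cyp2e1 (0.07) lie close to it.

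Family 1, which oxidises planar aromatic compounds, was represented by 1 gene above the floor. Cyp1a2, a caffeine-oxidising enzyme gene of central hepatocytes, had 11.57, 11.16, 11.44, 11.06 and 11.78 in mice 1 to 5. Its mean was 11.40 ± 0.30 (SD, n = 5), a 1.65-fold span, and its limma adjusted p was 0.299 (unadjusted 0.00597). It was highest in mouse 5 and lowest in mouse 4. Cyp1a1 and Cyp1b1, the classic AHR-induced genes of lung, skin and other tissues as well as liver, stayed below the floor on every array, at 5.11 to 5.54 and 5.16 to 5.42. Ahr itself was above the floor in all mice at 9.09 ± 0.17, and the AHR repressor gene Ahrr was on no array (4.64 ± 0.05).

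Subfamily 2a had 2 members with a probe set of their own, and they differed in spread. Cyp2a12, a steroid hydroxylase gene, had 11.99, 12.06, 11.99, 12.06 and 12.14 in mice 1 to 5 (SD 0.06). Cyp2a22 had 11.02, 11.40, 10.91, 11.52 and 11.40 (SD 0.27, a 1.53-fold span). Mice 1 and 3 were thus low and mice 2, 4 and 5 high for Cyp2a22, with limma adjusted p = 0.416 (unadjusted 0.0109). The span of Cyp2a12 was 1.11-fold.

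Subfamily 2b, whose genes lie next to each other and to Cyp2a on chromosome 7, held the gene with the widest spread of all members beside one whose spread was near that expected. Cyp2b13, a gene known from female mouse liver, had 8.22, 8.72, 6.99, 9.31 and 8.44 in mice 1 to 5, a 4.98-fold span. Mouse 3 was lowest and mouse 4 highest. Its SD was 0.86 where 0.12 was expected at its level (limma adjusted p = 0.0296), and without mouse 3 the SD was 0.47 and the limma adjusted p 0.305. The adjusted p was 0.0550 without mouse 2 (SD 0.96) and 0.185 without mouse 4 (SD 0.76). Cyp2b9, also known from female liver, had 12.94, 13.09, 12.90, 13.01 and 13.04, with a mean of 12.99 ± 0.08 (SD, n = 5), close to the expected 0.07. It too was lowest in mouse 3, by a small margin. Whether signals this near the top of the scale are compressed was not tested. Cyp2b10, the gene through which phenobarbital and CAR induction is usually read, had 8.78, 8.77, 8.06, 8.68 and 8.56. Mouse 3 was again lowest, and the SD was 0.30 with all mice and 0.10 without mouse 3 (limma adjusted p = 0.602 with all, unadjusted 0.0237). Cyp2b23 lay just above the floor at 6.32 ± 0.09, and Cyp2b19, an epidermal enzyme gene, below it at 5.45 ± 0.12.

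The bases upstream of Cyp2b13 and Cyp2b9 are shown because these genes had the most unlike spreads in the subfamily while their upstream sequences are nearly the same. RefSeq places the 250 bases before the annotated start at chr7:26061245-26061494 (plus strand) for Cyp2b13 and chr7:26173159-26173408 (plus strand) for Cyp2b9 in GRCm38.p6. They share 248 of 250 bases (99.2% identical), the highest value of the 109 pairs compared within subfamilies. Counted from 1 at the first printed base, the differences are T48C and C104T, with the base of Cyp2b9 first. Capitals mark the differing bases.
Cyp2b13 upstream: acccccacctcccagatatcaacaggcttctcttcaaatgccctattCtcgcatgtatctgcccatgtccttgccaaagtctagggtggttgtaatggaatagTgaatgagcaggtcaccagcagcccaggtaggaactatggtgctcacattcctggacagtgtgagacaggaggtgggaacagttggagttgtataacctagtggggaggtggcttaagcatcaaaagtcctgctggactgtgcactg
Cyp2b9 upstream: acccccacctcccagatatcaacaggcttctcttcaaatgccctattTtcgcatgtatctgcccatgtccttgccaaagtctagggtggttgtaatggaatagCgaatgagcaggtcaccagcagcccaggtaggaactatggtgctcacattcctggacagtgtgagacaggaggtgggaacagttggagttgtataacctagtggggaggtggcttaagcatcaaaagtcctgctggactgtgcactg
The deviations of Cyp2b13 from its mean were -0.11, 0.39, -1.35, 0.97 and 0.10 in mice 1 to 5, and those of Cyp2b9 were -0.06, 0.09, -0.10, 0.01 and 0.05. Both were below their mean in mice 1 and 3 and above it in the others.

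**Figure D3:**
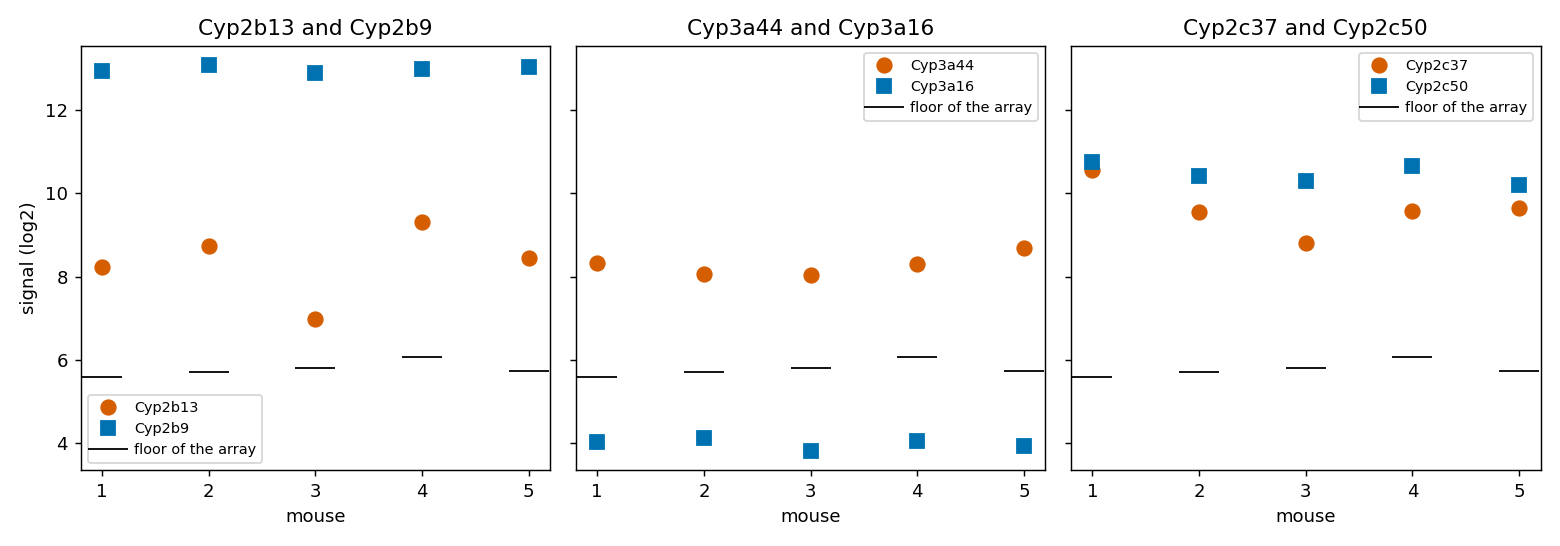
Signal (log2) of 3 pairs of P450 genes with similar upstream sequence, 1 point per mouse, with the floor of each array as a bar. Cyp2b13 is low in mouse 3 (6.99) while Cyp2b9 stays level, Cyp3a16 lies below the floor in all mice while Cyp3a44 lies above it, and Cyp2c37 varies (8.81 to 10.56) more than Cyp2c50 (10.20 to 10.76).

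Subfamily 2c, the arachidonic and linoleic acid epoxygenases and hydroxylases of chromosome 19, had the most tested genes of any subfamily. Of its 13 genes, 11 exceeded the floor on all arrays and 12 were tested. For 8 of the 12 (66.7%) the unadjusted p was under 0.05, against 6.38% of all tested genes, a share equal to that of the steroid enzymes (2 of 3). Their median SD was 0.24, against a median expected SD of 0.10. Cyp2c55, which is inducible through CAR and PXR, had 8.47, 8.18, 7.41, 7.96 and 9.44 in mice 1 to 5, a 4.09-fold span. Mouse 5 was highest and mouse 3 lowest, and its SD of 0.75 gave a limma adjusted p of 0.0490. Without mouse 5 the SD was 0.45 and the limma adjusted p 0.170. The adjusted p was 0.0719 without mouse 2 (SD 0.86), 0.136 without mouse 3 (0.65) and 0.168 without mouse 4 (0.84). Cyp2c37 had 10.56, 9.56, 8.81, 9.58 and 9.66, a 3.35-fold span. Here mouse 1 stood at the high end and mouse 3 at the low end, and the limma adjusted p was 0.0668 with an SD of 0.62. Without mouse 1 the SD was 0.40 and the limma adjusted p 0.274. Cyp2c39, known for hydroxylating retinoic acid, had 7.60, 7.55, 6.96, 7.83 and 8.34 (SD 0.50, limma adjusted p = 0.191), lowest in mouse 3 and highest in mouse 5.

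The other 2c genes spread less and in more than 1 pattern. Cyp2c38 had 10.25, 10.20, 10.03, 10.73 and 10.89 (SD 0.37) and Cyp2c68 had 9.93, 9.86, 9.71, 10.13 and 10.34 (SD 0.25). In both, mice 4 and 5 were above mice 1 to 3. Cyp2c54 had 10.12, 9.94, 9.72, 9.91 and 9.43 (SD 0.27, and 0.17 without mouse 5) and Cyp2c50 had 10.76, 10.41, 10.31, 10.65 and 10.20 (SD 0.23). These were highest in mouse 1 and lowest in mouse 5, where Cyp2c38 and Cyp2c68 were highest. Cyp2c29, a CAR-responsive gene, had 12.38, 11.94, 12.01, 11.85 and 12.11 (SD 0.21), and Cyp2c70, which makes the muricholic acids of mouse bile, had 11.19, 10.80, 10.95, 10.80 and 11.10 (SD 0.17), both highest in mouse 1. Cyp2c23 (12.05 ± 0.05) and Cyp2c67 (10.71 ± 0.07) spread less than expected at their level (0.08 and 0.10). Cyp2c66 passed the floor on 4 arrays (6.03 ± 0.16) and Cyp2c65, known from the gut, on none (3.99 ± 0.15).

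Averaged over the 12 tested genes, subfamily 2c deviated by 0.19, -0.10, -0.28, 0.00 and 0.19 in mice 1 to 5. Of the 12 genes, 7 were highest in mouse 1, 5 in mouse 5 and 0 in the other mice. Over all tested genes, 23.9% were highest in mouse 1, 25.5% in mouse 2, 22.9% in mouse 3, 8.47% in mouse 4 and 19.2% in mouse 5. Several marker lists of other cell types had their highest mean in mouse 1, though 0 of their genes passed in limma after adjustment. The unadjusted p was under 0.05 for 3 of 6 tested Kupffer cell, 1 of 2 erythroid and 4 of 4 muscle markers. This was so for 6.38% of all tested genes. The 6 Kupffer cell and macrophage markers averaged 9.25 in mouse 1 and 8.70 to 9.02 in the others, with 5 of 6 above the floor on all arrays. Of the 6, Vsig4 was highest in mouse 5 (11.08, against 10.81 in mouse 1). The 2 measured erythroid markers averaged 8.30 in mouse 1, 8.17 in mouse 3 and 7.52 to 7.73 in the others. The 5 skeletal muscle markers averaged 7.04 in mouse 1 and 6.31 to 6.56 in the others, with Myh4 below the floor on every array. Their part in the 2c values was not tested.

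Cyp2c37 and Cyp2c50 are the most similar pair of the subfamily upstream and are shown for their unlike spread. The 250 bases before the RefSeq start are at chr19:39992174-39992423 (plus strand) for Cyp2c37 and chr19:40089429-40089678 (plus strand) for Cyp2c50 in GRCm38.p6, with 84.3% of aligned positions identical. Capitals mark bases that differ or have no counterpart in the other sequence.
Cyp2c37 upstream: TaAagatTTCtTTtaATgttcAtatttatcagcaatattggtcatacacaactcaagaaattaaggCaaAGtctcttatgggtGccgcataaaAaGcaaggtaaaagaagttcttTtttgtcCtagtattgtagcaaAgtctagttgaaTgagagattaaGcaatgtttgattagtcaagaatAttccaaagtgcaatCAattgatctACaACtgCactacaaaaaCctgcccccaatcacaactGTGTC
Cyp2c50 upstream: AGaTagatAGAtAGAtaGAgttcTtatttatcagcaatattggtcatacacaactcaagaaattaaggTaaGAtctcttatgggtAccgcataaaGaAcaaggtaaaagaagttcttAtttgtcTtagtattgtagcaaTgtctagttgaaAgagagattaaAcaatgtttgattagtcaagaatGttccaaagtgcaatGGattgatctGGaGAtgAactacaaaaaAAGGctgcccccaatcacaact
Cyp2c37 deviated by 0.92 in mouse 1 and -0.82 in mouse 3, and Cyp2c50 by 0.29 and -0.16. Both were highest in mouse 1, and the lowest mouse was mouse 3 for Cyp2c37 and mouse 5 for Cyp2c50.

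**Figure D4:**
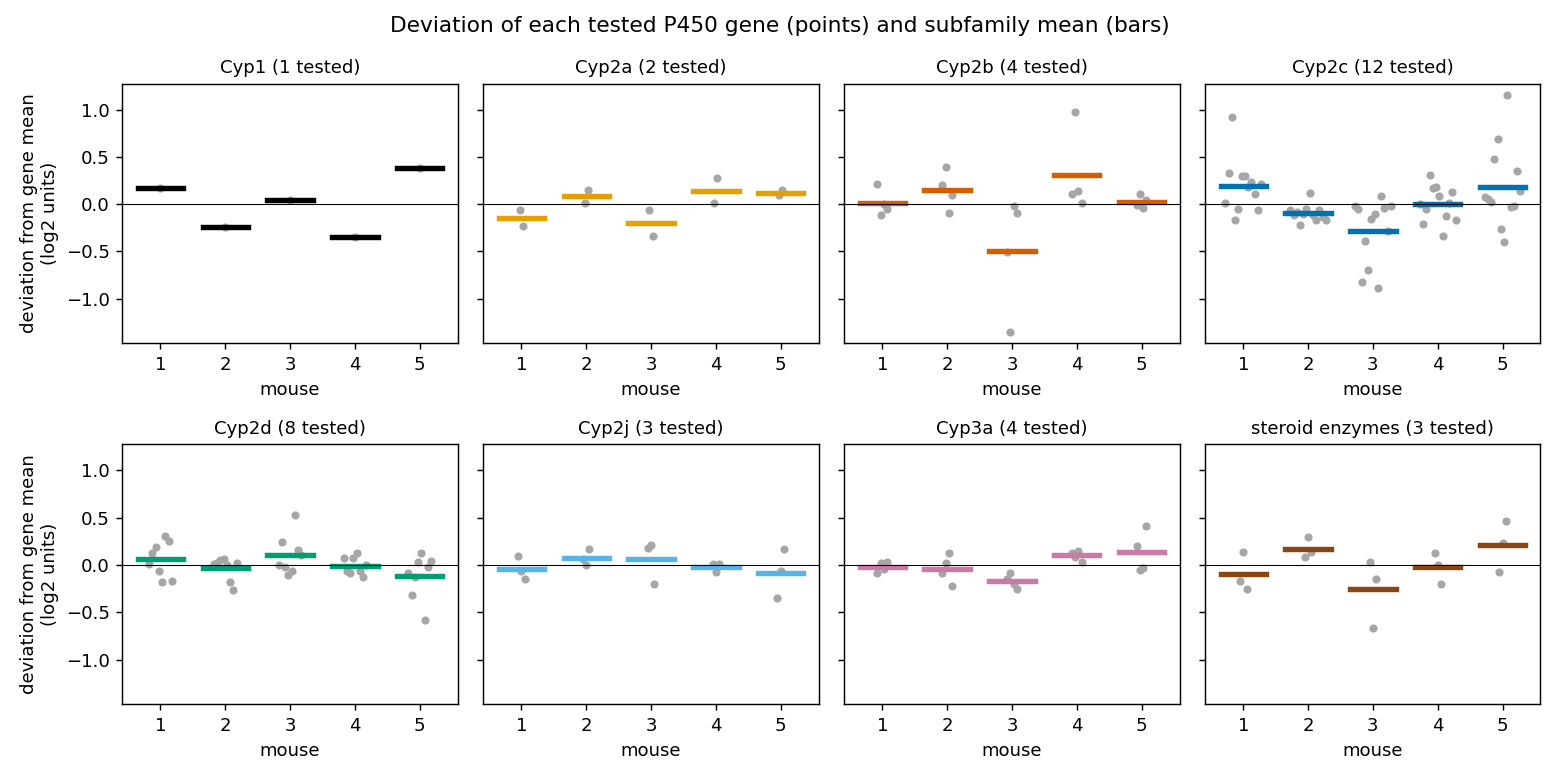
Deviation of each tested P450 gene from its own mean (points, log2 units) in mice 1 to 5, by subfamily, with the subfamily mean as a bar. Subfamily 2b (-0.49), subfamily 2c (-0.28) and the steroid enzymes (-0.26) are lowest in mouse 3, while subfamily 2d is highest there (0.10).

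Subfamily 2d, on chromosome 15, spread less. Of 10 genes, 7 exceeded the floor on all arrays and 8 were tested, with a median SD of 0.13 and 1 unadjusted p under 0.05. That gene was the pseudogene Cyp2d37-ps, with 9.98, 9.49, 10.19, 9.60 and 9.08 in mice 1 to 5 (SD 0.43, limma adjusted p = 0.186). It was highest in mouse 3 and lowest in mouse 5. Cyp2d13 had the same extremes, at 9.75, 9.64, 9.87, 9.56 and 9.30 (SD 0.21). As close copies, these may share signal on the array. Cyp2d22, counted as the mouse counterpart of the human drug-oxidising CYP2D6 gene, had 11.62 ± 0.13 (limma adjusted p = 0.992), highest in mouse 1 (11.81). Cyp2d9, a testosterone hydroxylase gene of male liver, had 11.25, 11.45, 11.53, 11.43 and 11.47 (SD 0.10), lowest in mouse 1. Cyp2d26 (12.97 ± 0.08) and Cyp2d10 (10.41 ± 0.06) were level, and Cyp2d40 had 7.39 ± 0.21. Cyp2d34 passed the floor on 4 arrays (5.94 ± 0.13), and Cyp2d11 (5.26 ± 0.15) and Cyp2d12 (4.32 ± 0.09) on none. The 8 genes deviated on average by 0.06, -0.04, 0.10, -0.01 and -0.12 in mice 1 to 5.

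Cyp2e1 and Cyp2f2 are single genes of their subfamilies. Cyp2e1, which oxidises ethanol, acetone and paracetamol in central hepatocytes and is known to respond to diabetes in rodents, had 13.32, 13.41, 13.38, 13.43 and 13.26 in mice 1 to 5 (mean 13.36 ± 0.07, a 1.12-fold span). Cyp2f2, a naphthalene-oxidising gene of periportal hepatocytes, had 13.09, 13.08, 13.11, 12.98 and 12.94 (mean 13.04 ± 0.07). Neither exceeded the expected spread by more than 0.01, with limma adjusted p = 0.992 for both.

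Of the 6 genes of subfamily 2j, epoxygenases of chromosome 4, 3 exceeded the floor. Cyp2j5, the main family member of liver and kidney, had 12.31, 12.28, 12.40, 12.23 and 11.87 in mice 1 to 5 (SD 0.20, limma adjusted p = 0.593, unadjusted 0.0228), with mouse 5 apart at the low end. Without mouse 5 the SD was 0.07 and the limma adjusted p 0.994. Cyp2j6 had 9.56, 9.62, 9.83, 9.55 and 9.56 (SD 0.12), with mouse 3 apart at the high end. Cyp2j9 had 7.97 ± 0.17 and was lowest in mouse 3 (7.77). Cyp2j11, Cyp2j12 and Cyp2j13 averaged 4.35 to 5.15, below the floor on all arrays. The 3 tested genes thus had no common order of mice.

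Subfamily 3a, of chromosome 5, oxidises a wide range of drugs and steroids. All 4 of its tested genes were lowest in mouse 3, as were 37.5% of the tested P450 genes and 18.9% of all tested genes. Cyp3a11, the main PXR-induced gene of adult liver, had 12.74, 12.75, 12.68, 12.96 and 13.03 in mice 1 to 5 (SD 0.15, limma adjusted p = 0.829). Cyp3a25 had 12.51, 12.68, 12.35, 12.70 and 12.52 (SD 0.14), and Cyp3a13, a gene of liver and gut, had 11.02, 11.02, 10.91, 11.08 and 10.94 (SD 0.07). The margins in mouse 3 were small: the 4 genes deviated by -0.17 on average there, and by -0.02, -0.04, 0.10 and 0.13 in mice 1, 2, 4 and 5. Cyp3a44, a gene of female liver, had 8.32, 8.05, 8.03, 8.31 and 8.69 (SD 0.27, limma adjusted p = 0.756, unadjusted 0.0426), with mouse 5 highest and mice 2 and 3 nearly equal at the low end. Without mouse 5 its SD was 0.16.

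Cyp3a16, known from fetal and female liver, stayed below the floor in all mice (3.98 ± 0.12), as did Cyp3a57 (3.80 ± 0.11). Cyp3a44 and Cyp3a16 are shown because 1 of the pair was above the floor on every array and the other on none, with upstream sequences 92.9% identical over aligned positions. The 250 bases before the RefSeq start are at chr5:145805875-145806124 (minus strand) for Cyp3a44 and chr5:145469724-145469973 (minus strand) for Cyp3a16 in GRCm38.p6. Capitals mark bases that differ or have no counterpart.
Cyp3a44 upstream: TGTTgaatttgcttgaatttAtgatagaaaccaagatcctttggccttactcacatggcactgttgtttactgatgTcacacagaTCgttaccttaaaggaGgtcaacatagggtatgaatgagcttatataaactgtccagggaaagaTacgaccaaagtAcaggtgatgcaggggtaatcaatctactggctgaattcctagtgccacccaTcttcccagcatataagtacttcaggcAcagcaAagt
Cyp3a16 upstream: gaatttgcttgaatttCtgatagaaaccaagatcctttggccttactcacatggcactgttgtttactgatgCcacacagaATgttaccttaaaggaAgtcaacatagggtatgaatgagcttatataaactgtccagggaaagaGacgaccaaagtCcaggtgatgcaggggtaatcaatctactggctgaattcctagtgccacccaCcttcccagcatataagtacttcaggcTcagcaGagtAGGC
Signals of different probe sets are not on a common scale, so the comparison is with the floor and not between the 2 levels.

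Of the steroid enzyme genes, Cyp17a1, the hydroxylase and lyase of androgen synthesis, was well above the floor. It had 10.70, 10.86, 9.90, 10.57 and 10.79 in mice 1 to 5 (mean 10.56 ± 0.39, a 1.94-fold span). Mouse 3 was lowest, and without it the SD was 0.13. The limma adjusted p was 0.202 with all mice (unadjusted 0.00246). Cyp21a1, of corticosteroid synthesis, exceeded the floor on 3 arrays and was highest in mouse 5 (6.30, against 5.59 to 5.98 in the others, SD 0.30, and 0.17 without mouse 5). Cyp11b2, the aldosterone synthase gene, exceeded the floor on all 5 arrays by small margins (5.97 ± 0.12), while Cyp11a1, which cleaves the side chain of cholesterol (4.65 ± 0.22), and Cyp11b1, of corticosterone synthesis (4.88 ± 0.12), were below it on all arrays. Of 6 adrenal cortex markers, which include Cyp11a1 and Cyp11b1, 1 (Nr5a1) exceeded the floor on all arrays and the list averaged 5.32 to 5.44. The 3 tested steroid genes had no common order of mice: in mouse 3 Cyp17a1 deviated by -0.66, Cyp21a1 by -0.14 and Cyp11b2 by 0.03.

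Genes of retinoic acid and vitamin D turnover were mostly level. Cyp26a1, which clears retinoic acid, had 8.54, 8.79, 8.77, 8.48 and 8.51 in mice 1 to 5 (SD 0.15, limma adjusted p = 0.992). Cyp26b1 had 7.28 ± 0.19 and Cyp26c1 6.07 ± 0.07, above the floor on 5 and 4 arrays. Cyp2r1, the main vitamin D hydroxylase gene of liver, had 8.99, 9.06, 8.89, 8.68 and 8.43 (SD 0.26, limma adjusted p = 0.749, unadjusted 0.0412). It was lowest in mouse 5, without which the SD was 0.17. Cyp27b1, which makes active vitamin D in kidney, was below the floor on every array (5.24 ± 0.10).

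Among the remaining genes, Cyp39a1, an oxysterol hydroxylase gene of bile acid synthesis, spread widest. It had 7.44, 7.24, 6.24, 6.83 and 7.18 in mice 1 to 5 (SD 0.47, limma adjusted p = 0.237, unadjusted 0.00353). Mouse 3 was lowest, and without it the SD was 0.25. Cyp2u1, a fatty acid hydroxylase gene, had 8.62, 9.004, 9.07, 8.62 and 8.23 (SD 0.34, limma adjusted p = 0.431, unadjusted 0.0118), highest in mouse 3 and lowest in mouse 5. Cyp20a1, an enzyme gene with no settled substrate, had 8.19 ± 0.09. Cyp2s1 (6.27 ± 0.11) and Cyp2w1 (6.45 ± 0.14), genes of extrahepatic tissues, lay above the floor on all arrays by small margins. Cyp2ab1, Cyp2g1 of the nasal lining and Cyp2t4 averaged 4.64 to 5.44 and were below it on all arrays.

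Over all 48 tested genes, 18 (37.5%) were lowest in mouse 3, against 18.9% of all 13336 tested genes. They included genes known as female-biased in mouse liver. All 6 tested genes of a list of 12 such genes (Cyp2b9, Cyp2b10, Cyp2b13, Cyp3a44, Cyp17a1 and Cyp39a1) were lowest in mouse 3, and Cyp3a16 was below the floor. On average these 6 deviated by 0.11, 0.17, -0.60, 0.16 and 0.16 in mice 1 to 5, and 1 of them, Cyp2b13, passed in limma after adjustment. For 5 of the 6 the unadjusted p was under 0.05, against 6.38% of all tested genes and 41.7% of the tested P450 genes. The list was chosen with earlier results of these data known, so its agreement in mouse 3 is not an independent test. Its Cyp2b genes are close copies that may share signal. The 2 male-biased genes Cyp2d9 and Cyp2u1 were both highest in mouse 3, as were 22.9% of all tested genes, with a mean deviation of 0.23 there and of -0.13, 0.16, -0.04 and -0.22 in mice 1, 2, 4 and 5. Cyp2d9 itself deviated by 0.10 in mouse 3 (limma adjusted p = 0.992). Lowest in mouse 4 were 7 of the 48 genes (14.6%), against 36.5% of all tested genes. With mouse 4 left out, 19 of 48 P450 genes (39.6%) were lowest in mouse 3, against 29.8% of all 13627 tested genes. With quantile normalization, 5 of the 6 female-biased genes were lowest in mouse 3. The 5 hepatocyte markers averaged 13.09 in mouse 3 and 12.89 to 13.03 in the others. In mouse 3, Serpina1c deviated by 0.46, Apoa1 and Ttr by 0.08 and 0.09, and Alb and Tat by -0.01 and -0.05. The 4 measured cholangiocyte markers averaged 6.44 in mouse 3 and 6.54 to 6.73 in the others, with 3 of the 4 above the floor on all arrays. Epcam (-0.36) and Krt19 (-0.18) were lowest in mouse 3, whereas Sox9 was lowest in mouse 4 and Krt7 (0.07) was highest in mouse 3. On average, the tested erythroid markers deviated further in mouse 3 than these lists (0.32 over 2 genes, and 0.45 in mouse 1). So did the adipocyte (0.20 over 2 genes) and exocrine pancreas markers (0.18 over 3 genes), both highest in mouse 3. Of the pancreas markers, Ctrb1 (0.35) and Cpa1 (0.20, above the floor on 4 arrays) were highest there, while Cela1 (0.0006) was highest in mouse 5. The adipocyte markers Adipoq and Lep and the pancreas marker Prss2 were below the floor on all arrays. The 2 tested adipocyte markers were Plin1 (0.14 in mouse 3) and Car3 (0.25). Whether their signal came from adipocytes was not tested. The part of these cell types in the values of mouse 3 was not tested either.

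**Figure D5:**
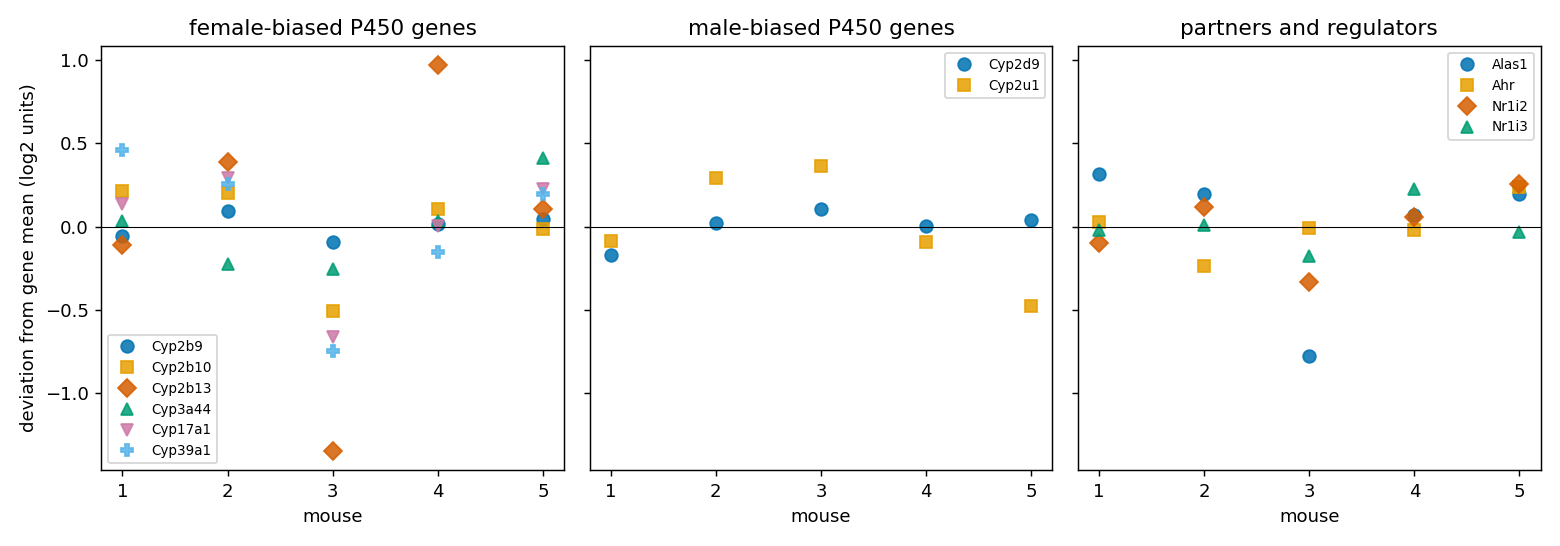
Deviation from the gene mean (log2 units) in mice 1 to 5 for the 6 tested female-biased P450 genes, the 2 male-biased ones and 4 partners and regulators, 1 point per gene and mouse. All 6 female-biased genes are below 0 in mouse 3, from -0.10 (Cyp2b9) to -1.35 (Cyp2b13), as is Alas1 (-0.78), and both male-biased genes are above 0 there.

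Genes known to respond to CAR or PXR were listed too, likewise with earlier results of these data known. Of these, Cyp2b10 is also on the female-biased list. Of 6 such genes (Cyp2b10, Cyp2c29, Cyp2c37, Cyp2c55, Cyp3a11 and Cyp3a13), 5 were lowest in mouse 3. This was so for 37.5% of the tested P450 genes and 18.9% of all tested genes. The list deviated by 0.26, -0.03, -0.42, -0.04 and 0.23 in mice 1 to 5. Of the 6, 1 passed the limma test over all probe sets, against 0.285% of all tested genes. For 4 of them the unadjusted p was under 0.05, against 6.38% of all tested genes and 41.7% of the tested P450 genes. The 8 measured pericentral genes (Cyp1a2, Cyp2c29, Cyp2c37, Cyp2c38, Cyp2c50, Cyp2c54, Cyp2e1 and Cyp3a11) were less uniform, with 3 lowest in mouse 3, 3 in mouse 5 and 2 in mouse 4. Their mean deviation was 0.21, -0.08, -0.20, 0.02 and 0.05. Over all tested genes, 18.9% were lowest in mouse 3, 21.6% in mouse 5 and 36.5% in mouse 4.

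Of 29 listed partners and regulators of P450 enzymes, 26 had a probe set of their own, which did not include the P450 reductase gene Por, and 25 exceeded the floor on all arrays. Of the 25 tested, 0 passed in limma after adjustment over all probe sets and 6 had an unadjusted p under 0.05. The shares over all tested genes were 0.285% and 6.38%. In mouse 3, 8 of the 25 (32.0%) were lowest and 6 (24.0%) highest, against 18.9% and 22.9% of all tested genes. Alas1, which encodes the rate-limiting enzyme of heme synthesis, had 11.86, 11.74, 10.76, 11.61 and 11.73 in mice 1 to 5 (mean 11.54 ± 0.44). Mouse 3 lay well below the others, and the limma adjusted p was 0.0905 (unadjusted 0.000589). Without mouse 3 the SD was 0.10 and the limma adjusted p 0.989. Nr1i2, the PXR gene, had 9.91, 10.13, 9.67, 10.06 and 10.27 (SD 0.23, limma adjusted p = 0.766). Nr1i3, the CAR gene, had 10.40, 10.43, 10.25, 10.65 and 10.39 (SD 0.15). Both were lowest in mouse 3 as well. Hmox1, which breaks heme down, was highest in mouse 5 (9.84, against 8.46 to 8.92 in the others, limma adjusted p = 0.0929).

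Short motifs were searched for on both strands in the 250 bases upstream of the 51 members with a RefSeq window, and in all 32851 windows of the same length. The letters TATAAA, the core of a TATA box, occurred in 22 of the 51 (43.1%), against 12.4% of all windows. CAAAGTCCA, a motif bound by the liver factor HNF4, occurred in 6 (11.8%), against 0.384%, and these were Cyp2c65, Cyp2c67, Cyp2c68, Cyp2c70, Cyp3a11 and Cyp3a16. AGGTCA, the half-site of many nuclear receptors, was found in 14 (27.5%, against 14.0%), among them Cyp2b9 and Cyp2b13 but not Cyp2b10, and AGTTCA in 4 (7.84%, against 11.8%). TTGCNNAA, a C/EBP-like motif, was in 10 (19.6%, against 9.56%) and in all 5 members of subfamily 2b. GCGTG, the core of the AHR site, was in 10 (19.6%, against 28.2%), including Cyp1a1 and Cyp1b1 but not Cyp1a2. The glucocorticoid half-site AGAACA was in 10 (19.6%, against 16.1%) and the STAT motif TTCNNNGAA in 2 (3.92%, against 7.02%). Close copies have similar windows, so the 51 are not independent, and none of these motifs contains another.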

How the data were processed

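Liver RNA of 5 mice was measured on 5 Affymetrix arrays, 1 per mouse. The deposited values are log2 signals per probe set, made by the authors with RMA and Affymetrix Expression Console 1.2, per the submitters' processing notes. RMA corrects background, aligns the arrays and summarises probes, which compresses differences near background. The table held 35556 probe sets, of which 21789 had 1 symbol in the platform annotation, 1621 several and 12146 none. All 65 members matched RefSeq (GRCm38.p6) by gene ID with the same symbol.

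With limma 3.58.1 (statmod 1.5.0, R 4.3.3), the mean alone was fitted to the 14586 1-symbol probe sets with a mean above the floor. The variance on 4 degrees of freedom was tested by an upper-tail F test against limma's robust trended expectation (prior degrees of freedom 6.21), with Benjamini-Hochberg adjustment over all of them. For genes with several probe sets the brightest stood for the gene. The procedure was tested on simulated data. List deviations average centred values of tested members and carry no test. Upstream sequences are from RefSeq and were aligned with Biopython 1.88, after Python 3.11.15 had cut them to 250 bases. No technical replicates were used, so spread between mice includes technical spread, and the number of arrays limits precision.

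The members and lists were chosen with earlier results of these data known. The rule for named genes took members that passed, the 2 widest tested members of each subfamily, 29 preset P450 genes, 5 partners and any partner that passed. Other genes and the sequence pairs were picked after their values were seen. Alternatives were other normalizations, floors, filters and variance fits, another gene summary, other list averages, and leaving out each mouse.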

Additional observations from a re-analysis of the deposited data

Results flagged for a closer look

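Over 65 member genes, 9 subfamily means and 5 other named genes, 2 had a single mouse far from the rest by Dixon's ratio (gap to the nearest value over the whole range, above 0.71 for 5 values). Chance alone flags about 1 in 20, and 5.65% of all tested genes were flagged. Alas1 had a ratio of 0.772, from mouse 3 at 10.76 against 11.61 to 11.86 in the other mice. Cyp2j6 had a ratio of 0.746, from mouse 3 at 9.83 against 9.55 to 9.62 in the others. Most listed partners and regulators were outside this check. Among them, Ppara (0.856, mouse 5 low), Hnf4a (0.803, mouse 3 low) and Nr0b2 (0.762, mouse 2 high) also had ratios above 0.71.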

How the results depend on the processing

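The number of P450 genes whose variance passed (2, by limma) was not stable. It was 1 with quantile normalization (Cyp2b13 passed and Cyp2c55 had an adjusted p of 0.0766) and 1 with the mean of all probe sets of a gene (0.0677). It was 0 with the floor at the 99th percentile, without the filter on dim probe sets, without the robust step, without the trend, and with all probe sets tested, where 19, 20, 16, 15 and 11 genes had an unadjusted p under 0.05. It was 0 to 2 when a mouse was left out, with 0 without mouse 2, 3 or 4 (18, 15 and 19 genes at an unadjusted p under 0.05), and 3 with arrays centred on their medians. Without mouse 4 and with all probe sets tested, 0 of 14891 and 0 of 21101 probe sets on the whole array passed (864 and 1385 at an unadjusted p under 0.05). In the main setting 52 of 14586 passed. This fell to 18 of 10868 with the floor at the 99th percentile and 40 of 21789 without the filter on dim probe sets. It was 18 without the robust step, 24 without the trend, 34 without mouse 2 and 30 without mouse 3. With quantile normalization it was 37 of 14572, and with the mean of all probe sets of a gene 31 of 13249. It rose to 142 of 14586 with arrays centred on their medians, 69 of 14453 without mouse 1 and 63 of 14519 without mouse 5. The adjusted p under all these alternatives ran from 0.00300 to 0.305 for Cyp2b13. Cyp2c37 passed with arrays centred on their medians (adjusted p = 0.00995) and without mouse 5 (0.00814), as did Alas1 (0.0177 and 0.0150), but the adjusted p was 0.274 for Cyp2c37 without mouse 1 and 0.989 for Alas1 without mouse 3. The SD over mice of the subfamily mean (0.30 for subfamily 2b) was 0.14 to 0.35 for 2b when a mouse was left out and 0.179 with the median over members, which gave 0.0522 for 2d (0.0863 with the mean) and 0.103 for 2j (0.0685). With the members below the floor averaged too it was 0.147 for family 1 (0.297 without them), 0.0943 for the steroid enzymes (0.193) and 0.0463 for the other members (0.0891), and with the floor at the 99th percentile it was 0.386 for the steroid enzymes, where Cyp17a1 was left. The counts above the floor (39 to 47, against 44), the median SD and the count lowest in mouse 3 (16 to 21, against 18, alternatives chosen after seeing the data) stayed within 1.5 times. The share of all tested genes lowest in mouse 3 ran from 17.9% (floor at the 90th percentile) to 29.8% (without mouse 4), against 18.9%. The cause of the other differences was not tested. No paired analysis was possible because there is 1 group. Genes near the floor, such as Cyp11b2, cannot be ranked by level.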
